A study of Mus musculus with 48 samples.

Results

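Macrophages grown from mouse blood monocytes were compared after 1 day with hepatocyte growth factor (HGF) and without it. The comparison takes 6 of the 48 arrays of the series, chosen by their titles, which name CD115-sorted cells with HGF for 1 day (3 arrays) and the matching control cells (3 arrays). Monocytes had been sorted from the blood of BALB/c males by CD115, the receptor for MCSF, and all cultures were first kept for 1 day in MCSF, on which macrophages depend for growth and survival. The control cells then stayed in MCSF, for 2 days in total, and the other cells received HGF for 1 day. The labels name no genetic change, give no dose of HGF and do not say whether MCSF remained beside it or how many animals made up a culture. The remaining arrays hold Kupffer cells, the macrophages that reside in the liver, and cultures of 3 days or with Ito cells or CD146 cells of the liver.

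HGF is made largely by stromal cells, in the liver by Ito cells, as an inactive precursor that serine proteases cut into its active form. It binds the receptor tyrosine kinase MET, which signals through the adaptors GAB1, GRB2 and SHC1 to the ERK and PI3K pathways. ERK signalling is known for switching on immediate early genes such as Egr1 and Fos within minutes and transiently, and HGF is known in macrophages for dampening the production of inflammatory cytokines.

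The arrays with HGF were dimmer than the controls as deposited. The median log2 difference over all genes was -0.55, and the mean of the negative control probe sets differed by -0.56. The gap was widest in the dimmest decile of genes, with a median of -0.79, and smallest in the brightest, with -0.20. The 5th percentile of the genes was 2.16 in the HGF arrays and lay between 2.80 and 3.01 in 13 other groups. In the Ito cultures of 1 day it was 2.57 for monocytic and 2.54 for Kupffer cells. The 6 arrays were therefore quantile normalized among themselves, and all gene values below are log2 values on that scale. The mean of the negative controls there is 5.53. This mean is no floor of the signal: as deposited, the median gene lay under it in both groups. The values were 4.88 against 5.81 in the control arrays and 4.29 against 5.25 in the HGF arrays. A signed value after a gene is the HGF mean minus the control mean (n = 3 each) in log2 units, ± limma SE. That SE draws on the spread within all 16 groups of the series, so it is not the scatter of the 6 values alone. A gene is said to rise or fall only where its p, adjusted over all genes, was under 0.05.

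**Figure D1:**
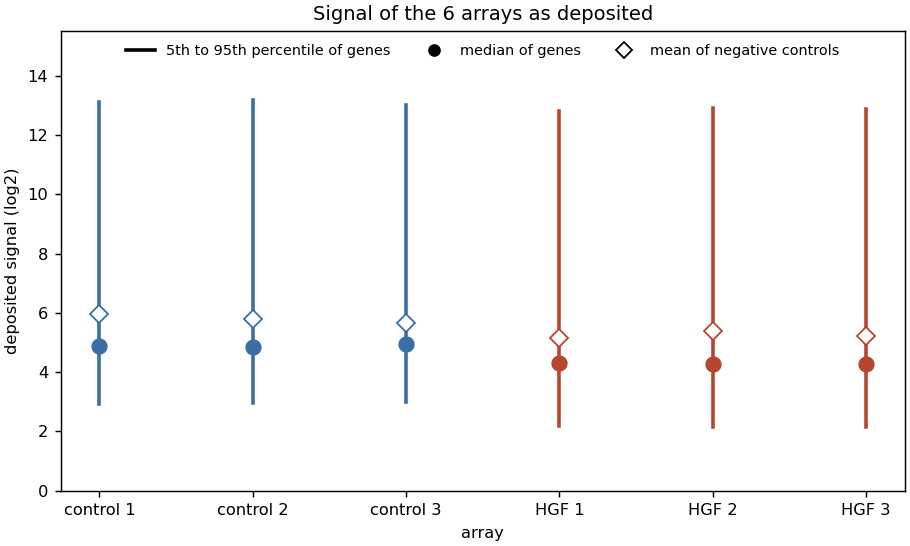
Deposited log2 signal of the 6 arrays, with the 5th to 95th percentile of the genes as a line, their median as a filled circle and the mean of the negative controls as an open diamond. The 5th percentiles of the HGF arrays sit between 2.14 and 2.18 and those of the control arrays between 2.93 and 2.98.

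Of 19505 genes, 422 passed (2.16%), with 218 higher (1.12%) and 204 lower with HGF (1.05%). Most of these calls came from dim probe sets: 339 had both group means under the negative controls, 3.09% of the 10986 such genes. Olfactory and vomeronasal receptors, which serve mainly in sensory tissue, passed in 43 of 1412 cases (3.05%). Among the 8519 genes with a group mean above the negative controls, 83 passed (0.974%), 45 of them higher and 38 lower, and these 83 are the ones described first. For scale, the 3 and 3 values did not overlap in 23.4% of all genes. On the deposited values 43 genes were higher (0.22%) and 7264 lower (37.2%), and with arrays aligned on the negative controls 257 were higher (1.32%) and 145 lower (0.743%). Among the genes above the negative controls the split moved from 45 higher and 38 lower to 198 and 17 with that alignment and to 264 and 24 with arrays centred on their medians. Without control replicates 1 and 2, 213 and 137 genes passed, and without HGF replicates 1, 2 and 3, 171, 267 and 218. When the dim genes were left out before the fit, 14 genes passed, 11 higher and 3 lower. Of the falls described below Egr1 alone passed in that fit.

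**Figure D2:**
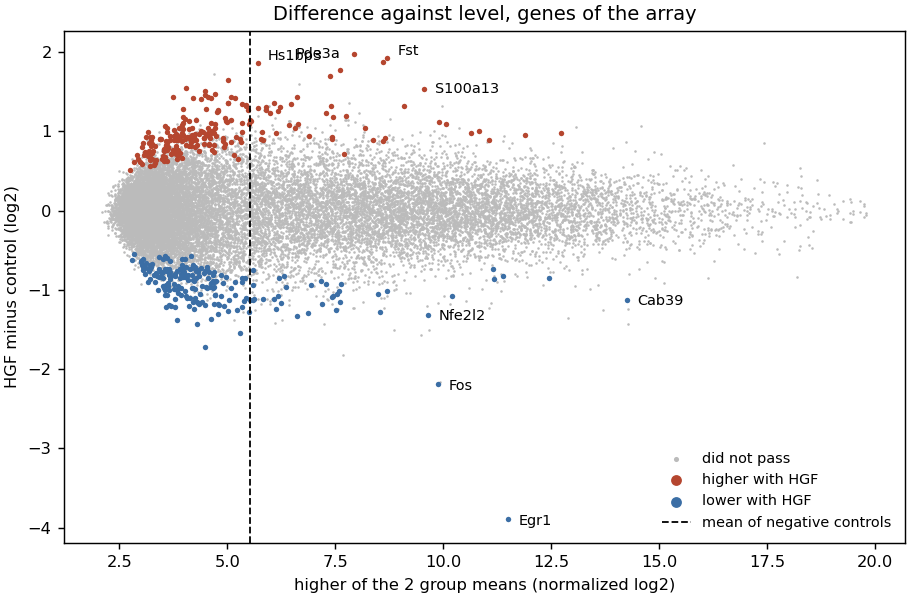
Log2 difference, HGF minus control, of each gene against the higher of its 2 group means, with genes that passed in colour and the mean of the negative controls as a dashed line. Of the coloured points 83 lie right of that line, and Egr1 (-3.90) and Fos (-2.19) stand lowest.

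The immediate early transcription factors held the largest falls. Egr1, a zinc finger factor of the early growth response family, measured 6.42, 6.22 and 10.17 in the 3 HGF arrays and 11.53, 11.26 and 11.71 in the controls. The groups did not overlap, but HGF replicate 3 lay much closer to the controls than to the other HGF arrays. Egr1 fell by 3.90 on the log2 scale (SE 0.85, adjusted p = 0.00975). Without HGF replicate 3 the difference was -5.16, and without HGF replicates 1 and 2 it was -3.29 and -3.19 and did not pass (adjusted p = 0.0806 and 0.0743). Fos, a subunit of the AP-1 factor, measured 7.73, 7.32 and 8.0 with HGF and 9.49, 9.80 and 10.34 in the controls. All HGF arrays lay well under all controls, and Fos fell by 2.19 (SE 0.53, adjusted p = 0.0195). It did not pass without control replicate 2 or 3 or HGF replicate 1 or 2, where it lay between -1.97 and -2.23 with adjusted p from 0.0634 to 0.0824, nor when dim genes were left out before the fit (adjusted p = 0.0769).

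Of the 28 measured genes on a list of ERK targets and immediate early genes, 0 rose and 3 fell (204 of all genes, 1.05%, fell). The median difference of the list was -0.22, with 21 of 28 genes below 0, against a median of -0.0024 over all genes. With the arrays aligned on the negative controls the list's median was -0.08, and 15 of 28 were below 0. Without HGF replicate 1 the list held 0 calls (0.415% of all genes fell), and it held 1 without HGF replicate 2 (0.584%) or control replicate 3 (0.902%). The third call was Egr3, another early growth response factor, at -1.14 ± 0.27 (adjusted p = 0.0186), but its group means, 4.24 and 5.38, both lie under the negative controls. It did not pass without control replicate 1 or 3 or HGF replicate 1 (adjusted p = 0.113, 0.0597 and 0.140). The other probe sets of Egr3 gave 0.17 and 0.22 and did not pass. Ier2, an immediate early regulator, stood at 7.67, 7.01 and 8.21 with HGF and at 8.74, 8.56 and 8.83 in the controls, without overlap and without passing (-1.08 ± 0.35, adjusted p = 0.0944). Of the feedback inhibitors of ERK, Dusp6 was at -0.50 ± 0.50, Spry2 at -0.08 ± 0.32 and Spred2 at -0.16 ± 0.29, and 0 of these 3 passed. The AP-1 subunits Jun (0.06 ± 0.37), Junb (-0.49 ± 0.53) and Fosl2 (0.36 ± 0.28) did not pass either.

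Fos and Nfe2l2, which fell, are set beside Hs1bp3 and Tut4, which rose, by their RefSeq promoter windows. They are the largest falls and rises that have a window, after a fixed rule left out the genes of 1 chromosome. Egr1 is not among them, which does not mean that it has no window. Windows were found for 21 of the 30 genes with the largest changes. Each runs from 250 bases before to 50 bases after the annotated start, on GRCm38.p6, 5′ to 3′ along the gene's strand. Capitals mark matches to the NF-kB motif, the only one of the 5 motifs searched that these windows hold. Fos is at chr12:85473640-85473939 (+), Nfe2l2 at chr2:75704614-75704913 (-), Hs1bp3 at chr12:8313183-8313482 (+) and Tut4 at chr4:108459160-108459459 (+), the first of its 2 windows.
Fos: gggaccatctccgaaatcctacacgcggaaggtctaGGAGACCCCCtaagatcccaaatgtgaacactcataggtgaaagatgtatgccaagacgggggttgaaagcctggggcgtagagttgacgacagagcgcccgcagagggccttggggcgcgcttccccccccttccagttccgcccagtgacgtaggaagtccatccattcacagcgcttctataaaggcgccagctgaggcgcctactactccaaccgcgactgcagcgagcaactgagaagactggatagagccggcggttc
Nfe2l2: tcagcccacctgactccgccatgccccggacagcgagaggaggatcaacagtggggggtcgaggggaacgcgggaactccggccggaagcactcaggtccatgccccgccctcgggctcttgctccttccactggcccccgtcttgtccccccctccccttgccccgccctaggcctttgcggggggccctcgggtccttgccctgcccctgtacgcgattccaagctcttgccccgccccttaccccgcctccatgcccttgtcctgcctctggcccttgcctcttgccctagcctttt
Hs1bp3: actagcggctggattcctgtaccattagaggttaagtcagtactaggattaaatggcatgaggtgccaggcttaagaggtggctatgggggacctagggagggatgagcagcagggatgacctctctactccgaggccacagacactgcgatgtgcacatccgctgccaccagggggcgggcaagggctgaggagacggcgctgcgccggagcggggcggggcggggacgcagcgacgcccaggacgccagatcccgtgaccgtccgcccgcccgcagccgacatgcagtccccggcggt
Tut4: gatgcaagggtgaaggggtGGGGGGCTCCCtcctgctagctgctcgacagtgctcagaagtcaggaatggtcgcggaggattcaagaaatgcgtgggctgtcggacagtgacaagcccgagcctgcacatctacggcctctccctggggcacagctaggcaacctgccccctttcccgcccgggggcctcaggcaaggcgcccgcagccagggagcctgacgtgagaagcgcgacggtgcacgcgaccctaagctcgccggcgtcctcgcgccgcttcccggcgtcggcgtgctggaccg
AP-1 (TGANTCA), CRE (TGACGTCA), E-box (CACGTG), NF-kB and CArG motifs were searched on both strands. Fos held 1 NF-kB match and Tut4 held 2, which overlap by all but 1 base, while the windows of Nfe2l2 and Hs1bp3 held no match to any of the 5. Among all 32851 windows, 8.46% held an NF-kB match, 7.81% AP-1, 7.15% the E-box, 1.79% CRE and 1.63% CArG. Of the 33 windows of genes that rose above the negative controls, 4 held NF-kB, 3 AP-1, 3 the E-box and 0 CRE or CArG. Of the 32 windows of genes that fell, 2 held NF-kB, 1 AP-1, 4 the E-box, 2 CArG and 0 CRE. These are matches of letters, not measured binding sites.

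In the inflammatory genes the HGF arrays stood apart from each other. Tnf, the archetypal macrophage cytokine, measured 10.54 and 10.10 in HGF replicates 1 and 2 but 13.94 in replicate 3, with controls at 12.21, 13.62 and 12.82. Replicates 1 and 2 were thus the lowest and replicate 3 the highest of the 6 arrays, and Tnf did not pass (-1.36 ± 0.91, adjusted p = 0.547). Il1b, the precursor of interleukin 1 beta, repeated this order with 12.84, 12.31 and 16.27 against 13.71, 15.26 and 14.68 (-0.74 ± 0.70, adjusted p = 0.715). Ptgs2, the inducible cyclooxygenase, read 11.81, 11.16 and 15.63 against 13.41, 14.76 and 14.71 (-1.43 ± 0.60, adjusted p = 0.235). Il6 read 8.95, 9.39 and 12.64 against 10.98, 12.35 and 10.68 (-1.01 ± 0.62, adjusted p = 0.489). In each of these genes HGF replicate 3 was the highest array, and HGF replicates 1 and 2 were the lowest.

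Over the 21 measured inflammatory cytokines and enzymes, 0 passed in either direction (2.16% of all genes passed). In 14 of them HGF replicates 1 and 2 both lay under all 3 controls, and in 13 HGF replicate 3 was the highest of the 6 arrays. Among the 8519 genes above the negative controls the first held for 15.7% and the second for 17.5%. In other lists HGF replicate 3 was the highest in 13 of 18 cholesterol synthesis genes, 7 of 8 B cell genes and 6 of 12 T and NK cell genes. The mean of the B cell list was 6.10 in that array and between 5.18 and 5.41 in the other 5, and that of the T and NK cell list was 5.58 beside 4.85 to 5.28. The mean over the list was lowest in HGF replicate 2 (9.75) and highest in HGF replicate 3 (11.62), with the controls at 10.49, 11.32 and 10.93. Without HGF replicate 3, 5 of the 21 were lower and 0 higher, beside 0.549% and 0.569% of all genes. These were Ptgs2 (-2.79 ± 0.44), Lif (-2.25 ± 0.50), Csf3 (-2.21 ± 0.41), Il6 (-2.16 ± 0.55) and Il1a (-2.16 ± 0.50), with adjusted p from 0.000882 to 0.0378. With any other single array left out the inflammatory list held 0 calls. Without HGF replicate 2 its median was -0.04, against -0.55 with all arrays. Ereg, an EGF receptor ligand on the growth factor list, was also lower without HGF replicate 3 (-2.17 ± 0.49, adjusted p = 0.0183) and in no other such fit. In the same array Dusp1, a phosphatase of stress kinases, stood at 13.87 beside 11.87 and 11.51 in the other HGF arrays, and the controls lay between 13.34 and 13.47. The part of these B, T and NK cell signals in the values of HGF replicate 3 was not tested.

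**Figure D3:**
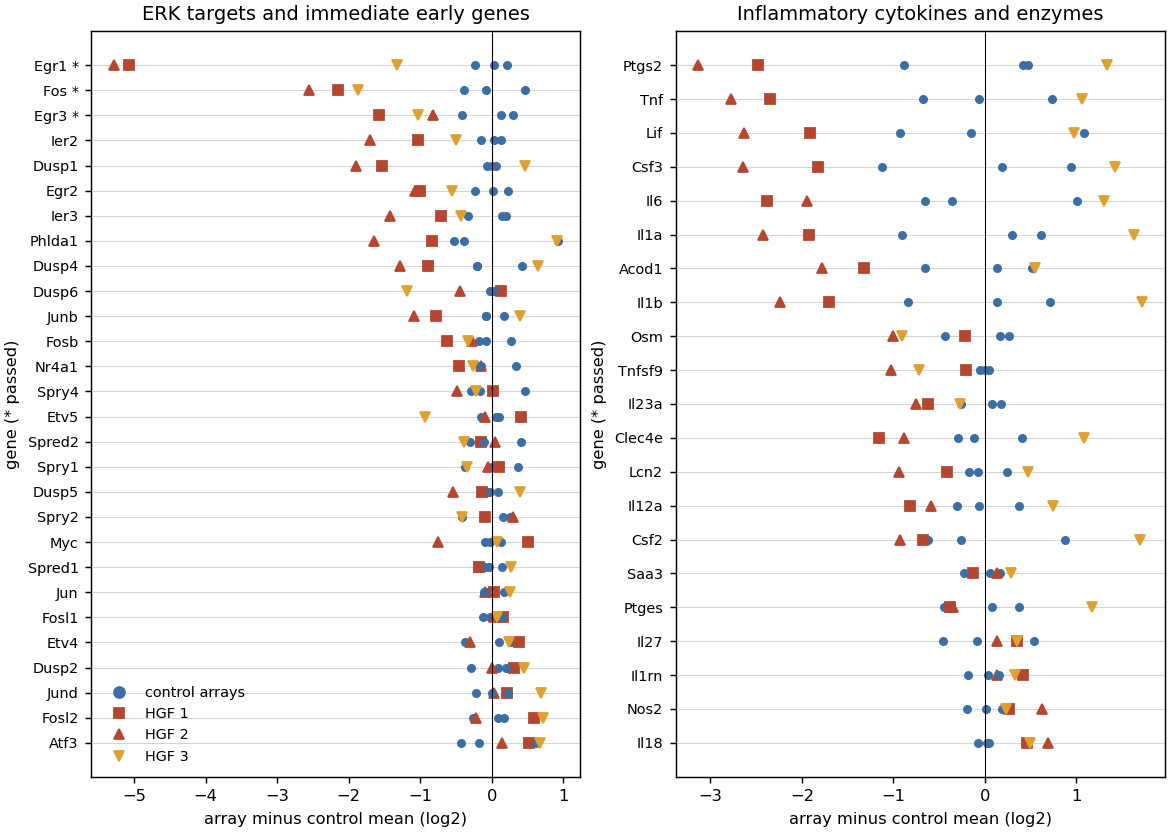
Each array's log2 value minus the control mean of the gene, for the 28 ERK targets and immediate early genes and the 21 inflammatory genes, with control arrays as circles and HGF arrays by replicate. In 13 of the 21 inflammatory genes HGF replicate 3 is the highest of the 6 arrays, while Egr1 and Fos are under the controls in all 3 HGF arrays.

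Of 22 measured genes on the list of HGF and MET signalling, 0 rose and 0 fell, and the median difference was 0.02. Over all genes 1.12% rose and 1.05% fell, so the absence of calls is near that share. Met, the receptor, measured 9.76, 9.16 and 9.57 with HGF and 8.51, 8.98 and 9.56 in the controls, so the cells carried signal for it well above the negative controls in both groups (0.48 ± 0.38, adjusted p = 0.643). Hgf stood at 6.24, 7.13 and 7.55 with HGF and at 7.19, 7.42 and 6.25 without (0.02 ± 0.34). The groups of both genes overlapped. The adaptor Crkl measured 11.71, 11.24 and 11.23 against 10.84, 10.75 and 10.66, without overlap and without passing (0.64 ± 0.25, adjusted p = 0.177). Mst1r, the related receptor for macrophage-stimulating protein, was at -0.37 ± 0.27, and Plau, the urokinase that can activate HGF, at 0.45 ± 0.32.

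The rises above the negative controls ran from 0.71 to 1.97, with a median of 1.14. Pde3a, a phosphodiesterase that breaks down cyclic AMP, measured 8.52, 7.71 and 7.55 with HGF and 5.94, 5.42 and 6.51 in the controls (1.97 ± 0.43, adjusted p = 0.00974). It was 3.92-fold higher, but did not pass without control replicate 2 or HGF replicate 1 (adjusted p = 0.0847 and 0.0790). Fst, which encodes follistatin, a secreted antagonist of activin, measured 9.33, 8.42 and 8.36 against 6.56, 6.59 and 7.19 (1.92 ± 0.32, adjusted p = 0.000749). Each HGF array lay over 1 log2 unit above each control, and Fst passed with any 1 of the 6 arrays left out, at 1.60 to 2.15. It was the only call among 22 measured genes of the TGF-beta and activin pathway, where 1 rose and 0 fell (1.12% and 1.05% of all genes). Inhba, a subunit of activin, was at 0.38 ± 0.41, and Smad7, an inhibitor of the pathway, at -1.11 ± 0.34 (adjusted p = 0.0739).

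Among genes with a name, the next largest rises were those of Hnrnpll, Hs1bp3 and Tut4. Hnrnpll, an RNA-binding regulator of alternative splicing, measured 8.61, 8.43 and 8.77 against 6.26, 6.47 and 7.47 (1.87 ± 0.35, adjusted p = 0.00246). Tut4, a terminal uridylyltransferase that tags precursors of let-7 and messenger RNA, measured 6.86, 7.74 and 7.51 against 5.82, 5.98 and 5.22 (1.70 ± 0.36, adjusted p = 0.00822). Neither gene's groups overlapped, and both passed with any 1 array left out. Hs1bp3, a binding partner of the leukocyte protein HS1, measured 6.21, 5.23 and 5.73 against 4.12, 3.73 and 3.73 (1.86 ± 0.27, adjusted p = 0.000324). Its control mean lies under the negative controls, so the size of its rise is uncertain, and on the deposited values it was 1.27. S100a13, a calcium-binding protein involved in the release of fibroblast growth factor 1, measured 9.72, 9.47 and 9.46 against 8.04, 7.80 and 8.21 (1.53 ± 0.30, adjusted p = 0.0038).

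The other named rises spanned several functions. Tapbpl, which edits the peptides of MHC class I, was at 7.49, 7.32 and 7.40 against 6.48, 5.83 and 5.93 (1.32 ± 0.23, adjusted p = 0.000981). Hyls1, a centriole protein needed for cilia, was at 9.42, 8.90 and 8.99 against 7.80, 7.53 and 8.01 (1.33 ± 0.25, adjusted p = 0.00268). The groups did not overlap in either gene, as the choice of genes required. The SD of Tapbpl was 0.085 with HGF and 0.35 in the controls, and that of Hyls1 was 0.27 and 0.24. Cox7a1, a subunit of cytochrome c oxidase known from muscle, rose by 1.35 ± 0.29, and Camk2n1, an inhibitor of calmodulin kinase II, by 1.31 ± 0.28. A pair of enzymes of lipid metabolism rose, Mogat1 (1.30 ± 0.28), a monoacylglycerol acyltransferase, and Acsbg1 (1.24 ± 0.30), an acyl-CoA synthetase. The zinc finger protein Zfp687 (1.43 ± 0.38), the membrane protein Tmem72 (1.29 ± 0.29) and the calmodulin-dependent kinase Pnck (1.27 ± 0.34) completed the 15 largest. In 7 of the 15 the control mean lay under the negative controls. With each of the 6 arrays left out in turn, 10 of the 15 passed every time, and Zfp687 in 0 of 6 cases.

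**Figure D4:**
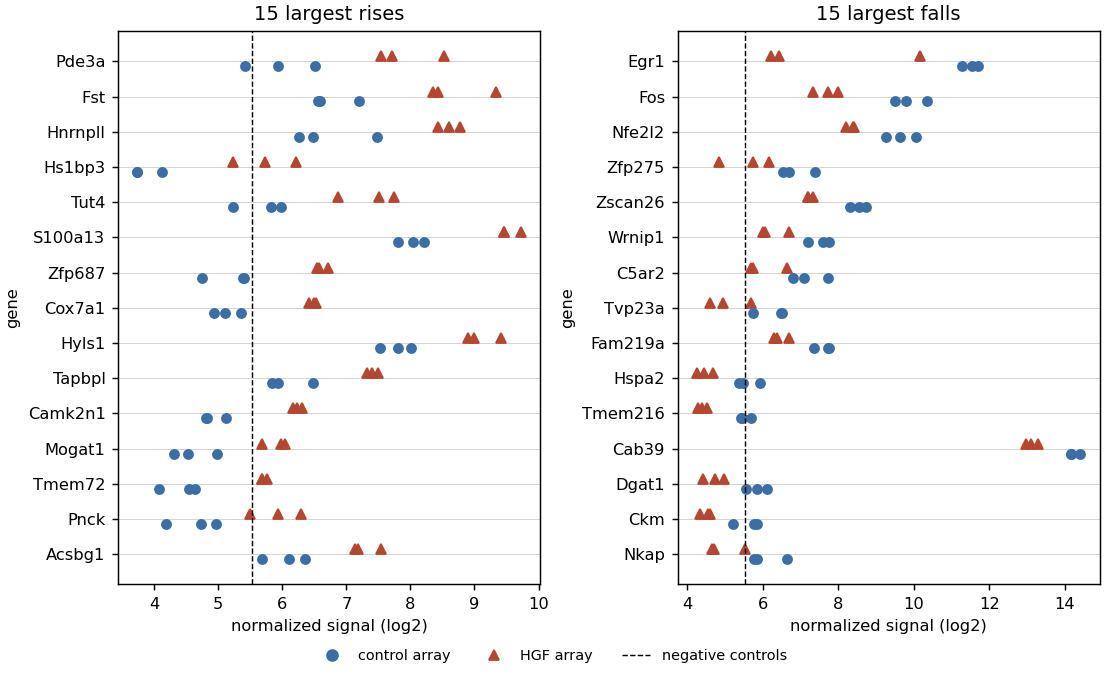
Normalized log2 signal of the 15 genes with the largest rise and the 15 with the largest fall above the negative controls, with control arrays as circles, HGF arrays as triangles and the mean of the negative controls as a dashed line. The groups do not overlap in any of the 30, as the choice of genes required, and Egr1 shows the widest spread, from 6.22 to 10.17 in the HGF arrays.

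The falls above the negative controls ran from -3.90 to -0.73, with a median of -1.08. After Egr1 and Fos the largest was Nfe2l2, which encodes NRF2, the factor that switches on antioxidant genes. It measured 8.41, 8.21 and 8.40 with HGF and 9.63, 10.06 and 9.27 in the controls, and fell by 1.31 (SE 0.33, adjusted p = 0.0271), but with 1 array left out it passed only without control replicate 3. It did not pass when dim genes were left out before the fit (adjusted p = 0.102) or with arrays aligned on the negative controls (-1.10, adjusted p = 0.0943). Of 20 measured NRF2 targets and glutathione genes it was the only call, with 0 rising (1.05% of all genes fell and 1.12% rose). Nqo1, a classical NRF2 target, was at 6.97, 6.92 and 7.46 against 6.30, 6.16 and 6.46 and did not pass (0.81 ± 0.38, adjusted p = 0.316), and Hmox1, another, was at 0.11 ± 0.19.

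C5ar2, the second receptor for the complement fragment C5a, measured 6.65, 5.71 and 5.74 with HGF and 6.80, 7.09 and 7.73 in the controls (-1.17 ± 0.33, adjusted p = 0.0474). HGF replicate 1 lay just under the lowest control. Cab39, a scaffold of the kinase LKB1, was the brightest of the 30 genes with the largest changes, at 13.29, 12.98 and 13.11 against 14.17, 14.17 and 14.41 (-1.12 ± 0.29, adjusted p = 0.0323). Dgat1, an enzyme that completes triglyceride synthesis, fell by 1.12 (SE 0.26) and Hspa2, a heat shock protein of the HSP70 family, by 1.13 (SE 0.22). Nkap, named as an activator of NF-kB, fell by 1.12 (SE 0.30), and Wrnip1, a partner of the Werner helicase, by 1.25 (SE 0.33). The zinc finger genes Zfp275 (-1.29) and Zscan26 (-1.28), the Golgi protein gene Tvp23a (-1.17), the cilia gene Tmem216 (-1.13), the creatine kinase gene Ckm (-1.12) and Fam219a (-1.15) completed the 15. In 6 of the 15 the HGF mean lay under the negative controls, so that these sizes are uncertain. With each array left out in turn, Hspa2 alone of the 15 passed in all 6 cases, and Fam219a, Tmem216 and Cab39 passed in 0. With arrays aligned on the negative controls 9 of the 15 falls passed, beside all 15 rises, and Cab39 stood at -0.73 (adjusted p = 0.306).

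Over all 40 gene lists, 2 of 683 measured genes rose and 5 fell, beside 1.12% and 1.05% of all genes, and 35 lists held no call. The direction of this balance depends on the scaling. With arrays aligned on the negative controls 26 rose and 3 fell, beside 1.32% and 0.743% of all genes. With arrays centred on their medians 31 rose and 5 fell, beside 1.83% and 1.42%. Arg1, a mark of alternative activation, read 19.02, 19.16 and 19.20 with HGF and 19.16, 19.16 and 19.09 without, near the top of the scale (-0.01 ± 0.53). Nos2, its classical counterpart, read 5.53, 5.89 and 5.50 against 5.28, 5.07 and 5.45, at about the level of the negative controls (0.37 ± 0.42). Neither gene, nor any of 24 measured genes of alternative activation, passed. Il10 (-0.47 ± 0.49), Tgfb1 (-0.26 ± 0.21), Mrc1 (-0.29 ± 0.47), Igf1 (0.04 ± 0.36), Vegfa (-0.17 ± 0.43) and Mmp9 (0.10 ± 0.52) did not pass either. Among 24 interferon-stimulated genes the smallest adjusted p was that of Ifit3b (1.36 ± 0.40, adjusted p = 0.0607), which read 7.58, 7.75 and 8.13 against 6.77, 6.34 and 6.28. Of 22 lysosomal genes it was that of Tfeb, a regulator of the lysosome (0.88 ± 0.25, adjusted p = 0.0527). Lists of 25 chemokines, 30 cell cycle genes, 30 respiratory chain genes, 23 glycolysis and hypoxia genes and 18 cholesterol synthesis genes held 0 calls. In these 5 the smallest adjusted p lay between 0.135 and 0.547.

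Core macrophage genes carried strong signal in both groups. The 13 measured core macrophage genes had a mean of 15.97, 15.90 and 15.78 with HGF and 15.87, 15.86 and 15.93 in the controls, and 0 of them passed. Adgre1, the F4/80 antigen, was at 0.02 ± 0.24, and Csf1r, the CD115 antigen by which the cells were sorted, at -0.21 ± 0.18. Of the 13 measured monocyte genes 12 were below 0, with a median of -0.33, and 0 passed. Ccr2, the chemokine receptor of inflammatory monocytes, measured 7.37, 8.14 and 9.03 against 10.04, 9.60 and 9.40, without overlap (-1.50 ± 0.47, adjusted p = 0.0789). Without HGF replicate 3 Ccr2 was lower, at -1.92 ± 0.50 (adjusted p = 0.0465), and it passed in no other fit with 1 array left out. In such cultures fewer cells of a type and less RNA per cell cannot be told apart. With the arrays aligned on the negative controls 9 of the 13 monocyte genes were below 0, and all 13 core macrophage genes above it.

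For 6 other cell types a defining marker lay under the negative controls in both groups, namely Alb of hepatocytes (4.51 with HGF, 4.64 without), Lrat of Ito cells (3.95 and 3.56), Stab2 of sinusoidal endothelium (2.10 and 2.50), Clec4f of Kupffer cells (3.12 and 2.82), Cd3e of T cells (4.10 and 5.09) and Ms4a1 of B cells (4.25 and 4.45). Over their whole lists, 11 of 12 hepatocyte, 11 of 14 Ito cell and fibroblast, 11 of 14 sinusoidal endothelial, 8 of 14 Kupffer cell, 9 of 12 T and NK cell, 4 of 8 B cell, 6 of 11 neutrophil and 7 of 10 platelet genes did so. Above them were the B cell receptor chain gene Cd79a (6.97 with HGF, 7.82 without), the neutrophil collagenase gene Mmp8 (18.29 and 18.01) and the platelet chemokine genes Pf4 (19.74 and 19.68) and Ppbp (17.74 and 17.39). The mast cell gene Cma1 (0.83 ± 0.17, adjusted p = 0.00605) and the endothelial gene Ehd3 (-0.87 ± 0.24, adjusted p = 0.0431) passed, but with both group means under the negative controls. Ehd3 passed in 0 of the 6 fits with 1 array left out, at adjusted p from 0.0730 to 0.161, and Cma1 did not pass without control replicate 2 (adjusted p = 0.0509). Neither passed with arrays aligned on the negative controls (adjusted p = 0.0572 and 0.0669).

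The response was next set beside that of monocytic macrophages after 3 days and of Kupffer cells after 1 day, which share no arrays with it. Of the 15 rises 0 also rose in monocytic macrophages after 3 days (6.62% of all genes did) and 1 rose in Kupffer cells after 1 day (5.85%), namely S100a13 at 1.01. Of the 15 falls 2 also fell after 3 days (6.4%), Zscan26 at -1.28 and Tvp23a at -1.27, and 1 fell in Kupffer cells (5.81%), Cab39 at -0.93. Hnrnpll went the other way in Kupffer cells, with a fall of 1.25, and Fam219a rose there by 1.43. The shares of all genes include those under the negative controls, from which these rises and falls were not drawn.

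The difference between the responses was tested gene by gene, for genes that had been chosen by their size at 1 day, so that the counts describe them and support nothing. Between 1 and 3 days 10 of the 15 rises had a higher response at 1 day (3.94% of all genes) and 3 of the 15 falls a lower one (3.62%). For 5 of these 13 all group means lay above the negative controls of their own arrays: Pde3a, Hnrnpll, Tut4, Tapbpl and Cab39. Pde3a stood at 1.97 and -0.31, a difference of 2.28 ± 0.61 (adjusted p = 0.0159), and Tapbpl at 1.32 and -0.52, a difference of 1.84 ± 0.32 (adjusted p = 0.00028). For Fst, Mogat1, Tmem72 and Hspa2 both means after 3 days lay under the negative controls, where signal over background is not shown. For Egr1 the responses were -3.90 and -2.34 and the difference, -1.56 ± 1.20, did not pass (adjusted p = 0.476). Fos stood at -2.19 and -0.27, with a difference of -1.92 ± 0.75 (adjusted p = 0.111).

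Against Kupffer cells 12 of the 15 rises had a higher response in the monocytic cells (2.72% of all genes) and 3 of the 15 falls a lower one (2.47%). For 9 of these 15 all group means lay above the negative controls of their own arrays, and for Hs1bp3, Mogat1, Tmem72 and Dgat1 both Kupffer means lay under them. Hnrnpll differed by 3.12 ± 0.50 (adjusted p = 0.000429) and Fst, at 1.92 and -0.01, by 1.93 ± 0.46 (adjusted p = 0.0104). Nfe2l2 stood at -1.31 and 0.25 and differed by -1.56 ± 0.47 (adjusted p = 0.0438). Egr1, at -3.90 and -2.29, differed by -1.61 ± 1.20 and did not pass (adjusted p = 0.453). The Kupffer HGF arrays of 1 day were the most scattered of the series, with a median SD of 0.45 per gene against 0.24 in the HGF and control arrays here, and when only the arrays compared entered the limma fit, 0 genes differed between the cell types (1968 at an unadjusted p under 0.05).

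**Figure D5:**
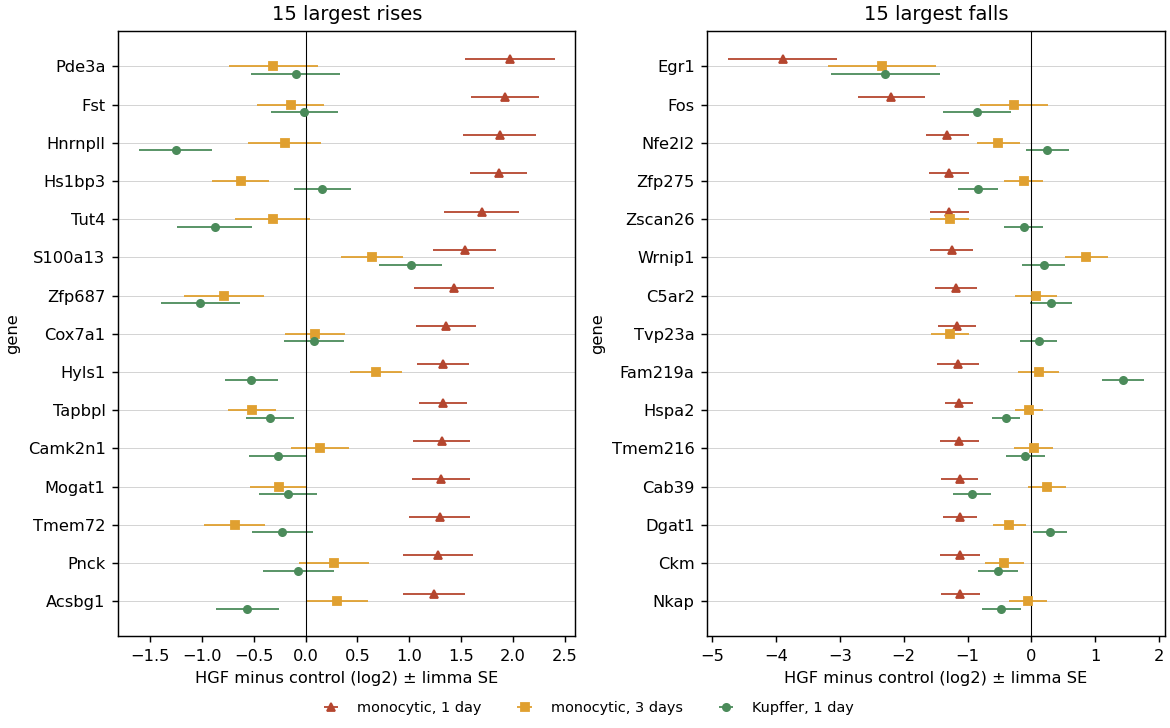
Log2 difference, HGF minus control, with limma SE for the 15 largest rises and falls of monocytic macrophages at 1 day, beside the same genes in monocytic macrophages after 3 days and in Kupffer cells after 1 day. Egr1 is negative in all 3 comparisons (-3.90, -2.34 and -2.29), while Fst is at 1.92, -0.14 and -0.01, with the second of these from means under the negative controls.

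The Ito and CD146 co-cultures of 1 day share the control arrays with the HGF comparison, so their values are only set side by side. Fst stood at 1.92 with HGF, 6.13 with Ito cells and -1.89 with CD146 cells, from group means of 8.70, 12.91 and 4.89 beside 6.78 in the control. Egr1 stood at -3.90, -0.77 and 0.48 in that order, and Fos at -2.19, -1.92 and 1.66. Nfe2l2 was negative in all 3, at -1.31, -1.95 and -0.76. Both Ito cultures of 1 day were likewise dim as deposited, with a 5th percentile of 2.57 for monocytic and 2.54 for Kupffer cells. The Kupffer cells with Ito cells share no array with the comparison. There 14 of the 45 genes that rose above the negative controls rose as well (31.1%, beside 8.19% of all genes), and 7 of the 38 that fell also fell (18.4%, beside 7.93%). Of the 45 rises, 4 rose in monocytic macrophages after 3 days of HGF and 3 in Kupffer cells after 1 day of it. These are 8.89% and 6.67%, near the 6.62% and 5.85% of all genes. Of the 38 falls, 5 and 4 did (13.2% and 10.5%, beside 6.4% and 5.81% of all genes). These rises and falls come from the 8519 genes with a group mean above the negative controls. The shares of all genes also count the 10986 under them, so the shares set side by side are not matched. Whether the low signal of the HGF and Ito arrays has a part in the shared calls or in the values set side by side was not tested.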

How the data were processed

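RNA of the 48 cultures was measured on Affymetrix arrays, 1 per culture, in 16 groups of 3 that the titles call biological replicates. The deposited values are log2 signals of the probe sets. The submitters' processing notes name RMA and the Transcriptome Analysis Console, whose versions are not given in the sources used here, nor is it stated that all arrays were normalized together. No counts exist, and the number of arrays limits the precision.

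Of 28846 probe sets, 6640 controls and 2634 transcript probe sets without a symbol were set aside. Of 55 genes with several probe sets the brightest was kept, leaving 19505 genes. The 6 arrays were quantile normalized among themselves and the other arrays mapped onto the same distribution. limma 3.58.1 (R 4.3.3, with data.table, version 1.17.8) fitted 1 mean per group over all 48 arrays, with default empirical Bayes moderation, a two-sided moderated test and Benjamini-Hochberg adjustment over all genes. The test was tried on simulated data. p-values and SE rest on the spread within all 16 groups, not within the 6 compared arrays alone.

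Genes named were up to 15 with the largest rise and 15 with the largest fall among those that passed, did not overlap and had a group mean above the negative controls (unnamed models, receptor families and near-identical families skipped), up to 5 members of each of 40 lists by adjusted p, and a fixed set. A gene outside these is named for its role in a list. The comparison, its members and the lists were chosen with earlier results of these data known. Equal replicate numbers were checked for pairing: deviations from the group means correlated by -0.13, 0.05 and -0.12. Between unequal numbers they ran from -0.18 to 0.26. With 3 arrays per group this cannot settle whether cultures were paired, which the labels do not say, and the arrays were treated as unpaired. Alternatives changed the scaling, the filter on dim genes, the arrays and the variance model. Promoter windows are RefSeq's (GRCm38.p6). The plots used Python 3.11.15, pandas 2.3.3 and matplotlib 3.10.9.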

Additional observations from a re-analysis of the deposited data

Results flagged for a closer look

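The HGF response of monocytic macrophages at 1 day differed from the response after 3 days, by the test of the difference, for 13 of the 30 genes with the largest changes. These genes were chosen by their size at 1 day, which enters every difference. For Fst, Mogat1, Tmem72 and Hspa2 both means after 3 days lay under the negative controls of their arrays, and for Hs1bp3, Zfp687, Cox7a1 and Wrnip1 at least 1 of the 4 means did, so that their differences are not exact sizes. The response was higher at 1 day for Hs1bp3 by 2.49, Pde3a by 2.28, Zfp687 by 2.22, Hnrnpll by 2.07, Fst by 2.07, Tut4 by 2.02, Tmem72 by 1.97, Tapbpl by 1.84, Mogat1 by 1.56 and Cox7a1 by 1.26 on the log2 scale. The differences of Wrnip1 (-2.10), Cab39 (-1.36) and Hspa2 (-1.10) were negative, a lower response at 1 day.

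The response of monocytic macrophages minus that of Kupffer cells at 1 day passed for 15 of the same genes. It was positive for Hnrnpll (3.12), Tut4 (2.57), Zfp687 (2.44), Pde3a (2.06), Fst (1.93), Hyls1 (1.85), Acsbg1 (1.80), Hs1bp3 (1.70), Tapbpl (1.66), Camk2n1 (1.58), Tmem72 (1.52) and Mogat1 (1.47), and negative for Fam219a (-2.59), Nfe2l2 (-1.56) and Dgat1 (-1.41). Both Kupffer means lay under the negative controls for Hs1bp3, Mogat1, Tmem72 and Dgat1, and at least 1 of the 4 means did for Zfp687 and Camk2n1.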

How the results depend on the processing

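The 15 rises and 15 falls kept their direction in every alternative that tested them. This was largely fixed in advance. The genes were chosen for values that do not overlap, and several alternatives reuse the same normalized values. Without genes under the negative controls 8 of the 30 were not tested, and 9 of 11 rises and 1 of 11 falls passed. With negative control alignment 15 and 9 passed, and with median centring 15 and 11. Klf1, an erythroid list gene that did not pass, turned to -0.72 on the deposited values. Of 422 calls the count became 7307 on deposited values, 230 without the dimmest 25% of genes, 14 without genes under the negative controls, 175 with only the 6 arrays, 1176 with array weights, 968 without 3 arrays of other groups that stood apart and 0 with a 2-fold minimum in limma (16 unadjusted). The 83 above the negative controls, a count added after seeing the data, became 1316, 288 with median centring, 215 with negative control alignment, 14 without dim genes, 364 with weights, 288 without the 3 arrays and 0 with the minimum (9 unadjusted). The 7 list genes became 111, 36, 29, 2, 28, 27 and 0 (3 unadjusted) in that order. The 1474 differences between 1 and 3 days became 5029 on deposited values, 3567 with weights, 3597 without the 3 arrays and 76 with the minimum. The 1012 between cell types became 4515 on deposited values, 2614 with median centring, 2250 with negative control alignment, 204 without dim genes, 0 with only the arrays compared (1968 unadjusted) and 0 with the minimum (272 unadjusted). Leaving out 1 array gave 137 to 362, 26 to 69, 2 to 12, 798 to 2313 (without control replicate 3 of 3 days) and 593 to 2494 (without Kupffer HGF replicate 1), in the order above. With the replicate number as a block, though pairing is not known, 324, 68, 6, 1354 and 936 passed. Fewer genes or arrays lower some of these counts by construction, and for the rest the cause was not tested. Signal over background limits the 339 calls under the negative controls.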
